A study of Rattus norvegicus with 12 samples.

Results

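The pyramidal cell layers of hippocampal areas CA1 and CA3 (HIP) were set against the cerebellar granular layer (CbG) and the cerebral cortex (CTX), to describe what both hippocampal layers share and the other regions lack. These samples were 6 of the 12 arrays of the study, 3 of CA1 and 3 of CA3, against the other 6, 3 of CbG and 3 of CTX, chosen by the region named in the sample labels. All neurons came from untreated Fisher 344/BN F1 rats, 6 months old, and by the study's methods all regions were captured from each animal. The labels give 3 biological replicates per region, and their numbers are taken here as rats, which no source used here states. Cells were lifted out of thin frozen brain sections by laser capture, and in the cortex they were taken from its deep layers in the frontal lobe. A captured layer still holds pieces of neighbouring cells, so the samples are enriched for neurons and not pure.

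Pyramidal cells of CA1 and CA3 are glutamatergic neurons with spiny dendrites, in which calcium that enters through NMDA receptors and voltage-gated channels changes the strength of synapses. Granule cells of the cerebellum are very small glutamatergic neurons with a few short dendrites, and deep cortical layers hold pyramidal cells of other kinds together with interneurons and glia. The hippocampal layers are known for plasticity that depends on calmodulin and its kinases, for a dense supply of corticosteroid receptors and for the sensitivity of CA1 cells to ischemia.

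RNA was amplified in 2 cycles and hybridized to the Affymetrix RAE230A array. The signal of a probe set is the MAS5 value in arbitrary units, and signals of different probe sets cannot be set against each other. Sums of signals over a marker list, given below, compare arrays and not genes, and the brightest probe sets weigh most in them. In all, 8305 of 15866 probe sets had signals above the array median in enough arrays to be tested, and 6923 of these carried 1 gene symbol (6282 genes). Differences are on the log2 scale after each array was centred on its median, with HIP over the mean of CbG and CTX. A probe set was called with an adjusted p under 0.05 in limma and at least 1.5-fold, and it was called shared when CA1 and CA3 each passed against CbG and against CTX, all 4 pairs in 1 direction. In such samples fewer cells of a type and less RNA per cell cannot be told apart.

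The labels of 2 arrays, CA3 replicate 3 and CbG replicate 3, did not match their signals. *Gabra6*, a GABA-A receptor subunit of cerebellar granule cells, read 2567.6 in the array labelled CA3 replicate 3, against 15.4 in that labelled CbG replicate 3. The other CbG arrays read 3379.3 and 1282.9, and the other CA3 arrays 5.6 and 38.6. *Grik4*, a kainate receptor subunit of CA3 cells, read 68.0 in the array labelled CA3 replicate 3 and 679.9 and 969.0 in the other CA3 arrays, against 621.0 in the array labelled CbG replicate 3 and 70.0 and 135.6 in the other CbG arrays. The match to the other region was not complete. The array labelled CbG replicate 3 read 3769.0 for *Wfs1*, a CA1 marker, above 1044.7 and 481.4 in the other CA3 arrays. Its summed CA1 markers were 10210, against 2001 to 3651 there. Purkinje cell markers summed to 2606 in the array labelled CA3 replicate 3, below 15790 and 37260 in the other CbG arrays. Because the 2 labels are in doubt, the comparison was made as labelled, without these 2 arrays (5 arrays a side), and with the 2 labels exchanged.

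As labelled, 12 probe sets were higher in HIP (0.144% of those tested) and 5 lower (0.0602%), and none was shared. At an unadjusted p under 0.05, limma had 1746 higher and 395 lower as labelled. Without the 2 arrays, 2292 probe sets were higher in HIP (27.6%) and 925 lower (11.1%), of which 665 (8.01%) and 197 (2.37%) were shared by all 4 pairs. The shared counts were 203 and 80 without CA3 replicate 2, the largest shift from leaving out 1 array or rat, and 110 and 37 with no filter on low signals. With the 2 labels exchanged, 2056 were higher (24.8%) and 978 lower (11.8%), with 707 (8.51%) and 236 (2.84%) shared. The shared sets of the 10 arrays and of the exchanged labels had 601 higher probe sets in common, 90.4% of those from 10 arrays and 85% of those with exchanged labels, and 180 lower ones, 91.4% and 76.3% of the same sets. All 665 and 197 kept their sign as labelled, and 418 and 89 had an unadjusted p under 0.05 there, but 3 and 1 were called. The arrangements share 10 arrays, so these overlaps are no independent check. Values below come from the 10 arrays unless another arrangement is named, and the 10-array and exchanged arrangements were chosen with earlier results of these signals known.

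**Figure D1:**
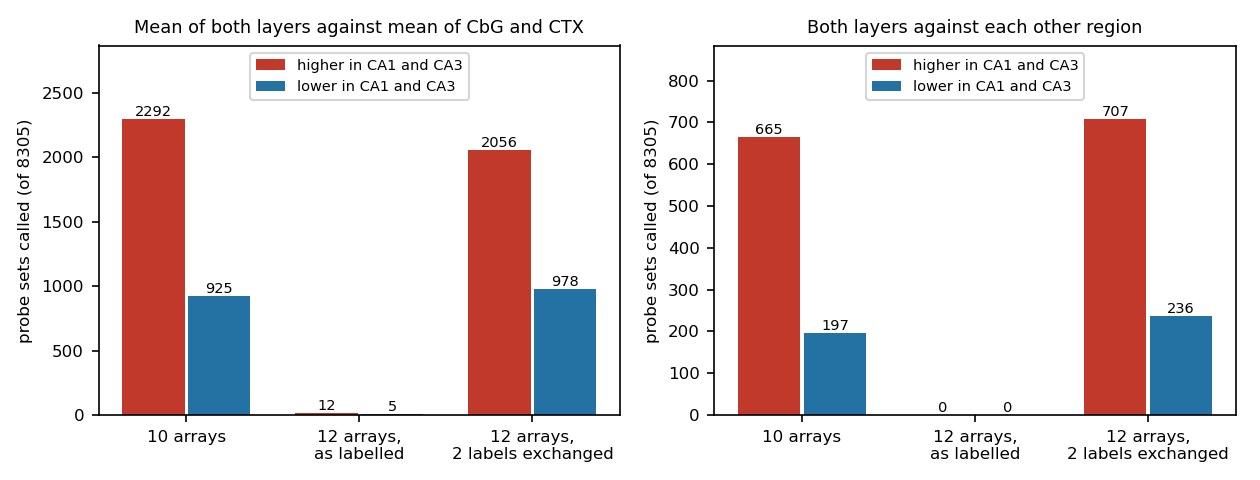
Counts of probe sets called higher and lower in HIP than in CbG and CTX, and shared by all 4 pairs of regions, as labelled, without the 2 arrays in doubt and with their labels exchanged. The 12 and 5 calls as labelled stand beside 2292 and 925 without the 2 arrays and 2056 and 978 with the labels exchanged.

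The scale of the arrays moved the balance of directions. The median signal was 154 ± 6.91 in HIP arrays and 187 ± 12.3 in CbG and CTX arrays (SD, n = 5 each), so centring on the median raised HIP values. The median difference over all tested probe sets was 0.25 on the log2 scale after centring and -0.02 on the deposited scale, and small differences are therefore read against that shift. With centring, 71.2% of calls were higher in HIP, against 45.8% on the deposited scale and 52.3% after quantile normalization. The filter on low signals moved this share too, to 63.8% with no filter and 74.9% with at least 8 of 12 arrays above the median. The 3' to 5' signal ratio of GAPDH, a sign of RNA length, was 1.78 ± 0.37 on the log2 scale in HIP arrays and 2.29 ± 0.36 in CbG and CTX arrays (SD, n = 5 each), and its part in the results was not tested. On the deposited scale 246 probe sets were shared higher, all among the 665, and 328 shared lower, among them all 197. Counts of a gene list are given on the deposited scale too where they move by more than 1.

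The shared probe sets that were higher in HIP formed a group with large gaps. The 665 probe sets included 571 with 1 symbol (541 genes), had a median log2 difference of 1.31 (0.64 to 6.37), and in 654 of them all 5 HIP arrays lay above all 5 others. Over all tested probe sets that held for 18.6%, and the opposite, all HIP arrays below, for 4.41%. The shared rule itself selects for such gaps. CA1 and CA3 differed in 34 of the 665 (5.11%), 19 with CA1 higher and 15 with CA3 higher, against 9.11% of all tested probe sets. The rule also leaves out many probe sets in which the layers diverge, so this share is no separate sign that they agree. CbG and CTX differed in 164 of them, in 156 with CbG below CTX and in 8 with CbG above it (24.7%), against 24.4% of all tested probe sets. Over all tested probe sets CbG was below CTX in 11.6% and above it in 12.8%.

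The largest fitted difference was that of *Klk8*, which codes for neuropsin, a secreted serine protease that acts on the matrix around synapses. Its signals were 786.7, 869.5 and 1068.1 in CA1 and 313.8 and 291.0 in CA3, against 2.8 and 15.3 in CbG and 12, 13.9 and 4.1 in CTX. Every HIP array lay far above every other array, and CA1 read more than CA3, although that gap did not pass (adjusted p = 0.118). The log2 difference was 6.37 ± 0.42 (SE, limma adjusted p = 2.85e-06), and it was 4.25 as labelled (adjusted p = 0.136) and 6.58 with labels exchanged (adjusted p = 1.17e-07). The CbG and CTX signals were far below the array medians, where signals are not exact, so the size and the rank are not settled. *Klk8* passed the filter on low signals only through these HIP arrays and the array labelled CbG replicate 3, as did *Wnt4*, *Matn2* and *Cotl1* below. For such genes the filter and the test draw on the same gap. With signals under 50 set to 50 the difference was 3.65, below the 5.13 of *Wipf3* and the 3.86 of *Rgs14*, and the sizes of other genes with such low signals depend on that floor in the same way.

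*Rgs14* is a regulator of G protein signalling that in mouse limits plasticity in area CA2. It read 1285.8, 1539.3 and 1396.7 in CA1 and 1749.2 and 1745.8 in CA3, against 8.5 and 6.5 in CbG and 311.7, 356.3 and 355.3 in CTX. CTX lay between the hippocampal layers and CbG, and CbG was near the floor of the array. The log2 difference was 5.23 ± 0.14 (SE, limma adjusted p = 3.52e-08), made of 7.91 over CbG and 2.55 over CTX. *Wipf3*, which binds the actin regulator N-WASP, read 10052.3, 12138.3 and 10910.2 in CA1 and 6386.9 and 7963.8 in CA3, against 71.6 and 161.9 in CbG and 764.7, 981.3 and 879.3 in CTX. Its difference was 5.13 ± 0.18 (SE, adjusted p = 9.41e-08), and it had the same order of regions as *Rgs14*.

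Promoter sequence, shown here for the members with the largest differences in each direction among those in the RefSeq table used here (assembly GRCr8), lets a reader see what precedes the start of these genes. *Klk8* and *Scn3b* are named only. The windows are the 250 bases before the start, chr17:9268234-9268483 (minus strand) for *Rgs14*, chr4:84880545-84880794 (plus strand) for *Wipf3*, chr1:27990985-27991234 (plus strand) for *Tpd52l1* and chr4:84478739-84478988 (plus strand) for *Chn2*. Capitals mark matches on either strand to 5 motifs, CAGATG and CAGCTG (E-boxes, bound by basic helix-loop-helix factors), TGACGTCA (the cyclic AMP response element), TATAAA (the TATA box) and GGGCGG (the GC box of SP1-type factors).
Rgs14: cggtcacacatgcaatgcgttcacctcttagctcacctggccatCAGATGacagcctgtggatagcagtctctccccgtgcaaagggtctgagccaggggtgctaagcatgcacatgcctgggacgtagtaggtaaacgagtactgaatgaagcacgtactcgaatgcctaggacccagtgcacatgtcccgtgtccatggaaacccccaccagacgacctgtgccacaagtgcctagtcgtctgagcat
Wipf3: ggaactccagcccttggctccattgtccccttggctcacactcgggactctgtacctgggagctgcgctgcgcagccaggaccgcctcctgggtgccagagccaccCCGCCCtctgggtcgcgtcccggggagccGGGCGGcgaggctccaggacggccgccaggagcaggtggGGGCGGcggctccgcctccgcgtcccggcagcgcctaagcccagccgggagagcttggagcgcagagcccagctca
Tpd52l1: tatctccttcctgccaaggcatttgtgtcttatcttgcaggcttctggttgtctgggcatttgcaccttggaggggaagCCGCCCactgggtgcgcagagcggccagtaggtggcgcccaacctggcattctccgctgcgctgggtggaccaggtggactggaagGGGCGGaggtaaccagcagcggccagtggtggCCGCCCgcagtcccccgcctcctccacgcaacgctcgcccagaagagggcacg
Chn2: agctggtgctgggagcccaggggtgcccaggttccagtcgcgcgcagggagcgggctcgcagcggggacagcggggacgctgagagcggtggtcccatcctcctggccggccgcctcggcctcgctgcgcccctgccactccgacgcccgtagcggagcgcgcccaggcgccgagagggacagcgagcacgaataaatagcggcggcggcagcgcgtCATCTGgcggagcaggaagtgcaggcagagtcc
*Rgs14* and *Chn2* held 1 CAGATG each, and *Wipf3* and *Tpd52l1* held 3 GGGCGG each. Of 452 shared higher genes with a promoter in the RefSeq table, 8.63% held CAGATG, against 9.6% of 125 shared lower genes, 8.36% of 5312 tested genes and 14% of all 33469 promoters. GGGCGG stood in 65.5%, against 70.4%, 63.1% and 30.5% of the same sets. CAGCTG stood in 13.1%, against 15.2%, 11.1% and 12%, TGACGTCA in 3.1%, against 1.6%, 3.12% and 1.59%, and TATAAA in 4.65%, against 7.2%, 5.8% and 12.9%. A match of letters is a description of these windows and no site of binding.

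*Scn3b*, the beta 3 subunit of voltage-gated sodium channels, read 8586.9, 8080.0 and 7006.0 in CA1 and 4164.8 and 6874.5 in CA3, against 72.6 and 65.3 in CbG and 945.4, 916.0 and 955.3 in CTX. *Hpca*, hippocalcin, a neuronal calcium sensor, read 8365.2, 9617.6 and 10195.0 in CA1 and 9451.7 and 11368.5 in CA3, against 226.4 and 289.7 in CbG and 1173.4, 1613.2 and 1216.9 in CTX. Both were separated from CTX as well as from CbG, with log2 differences of 4.94 ± 0.17 and 4.35 ± 0.15 (SE, limma adjusted p = 9.41e-08 for each). *Nrgn*, neurogranin, which holds calmodulin at the postsynapse, read 8444.1, 10869.1 and 9395.0 in CA1 and 6293.6 and 7303.8 in CA3, against 21.8 and 24.5 in CbG and 3578.7, 6571.0 and 3901.0 in CTX. Its 4.91 ± 0.16 (SE) was thus mostly a gap to CbG (8.67), with 1.14 over CTX, where 1 CTX array read more than 1 CA3 array before centring.

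Receptors and signals made up much of the rest of the top 12. *Wnt4*, a Wnt ligand, and *Adra1d*, the alpha 1D adrenergic receptor, differed by 4.50 ± 0.17 and 4.41 ± 0.18 (SE), with HIP signals of 274.1 to 454.8 and 574.0 to 714.0, against 2.5 to 110.9 and 8.7 to 214.9 in CbG and CTX. *Gabra5*, the alpha 5 subunit of extrasynaptic GABA-A receptors, differed by 3.88 ± 0.24 (SE), with signals of 3228.0 to 4239.5 in HIP, against 42.9 to 1881.7 in CbG and CTX. *Matn2*, a matrix protein, read 357.4 to 1035.8 in HIP, against 8.9 to 154.1 in CbG and CTX. None of these overlapped between the sides. *Rem2*, a small GTPase that holds back calcium channels, had the other order of CbG and CTX, with 421.8, 445.4 and 351.4 in CA1 and 893.5 and 1215.5 in CA3, against 231.1 and 62.3 in CbG and 17.4, 9.0 and 14.3 in CTX. *Gpr161*, a receptor of the primary cilium, was shared in spite of a wide gap between the layers, with 6971.6, 7757.0 and 6903.7 in CA1 and 813.8 and 394.5 in CA3, against 76.0 and 95.6 in CbG and 129.7, 219.6 and 228.9 in CTX. CA1 exceeded CA3 by 3.56 on the log2 scale there.

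**Figure D2:**
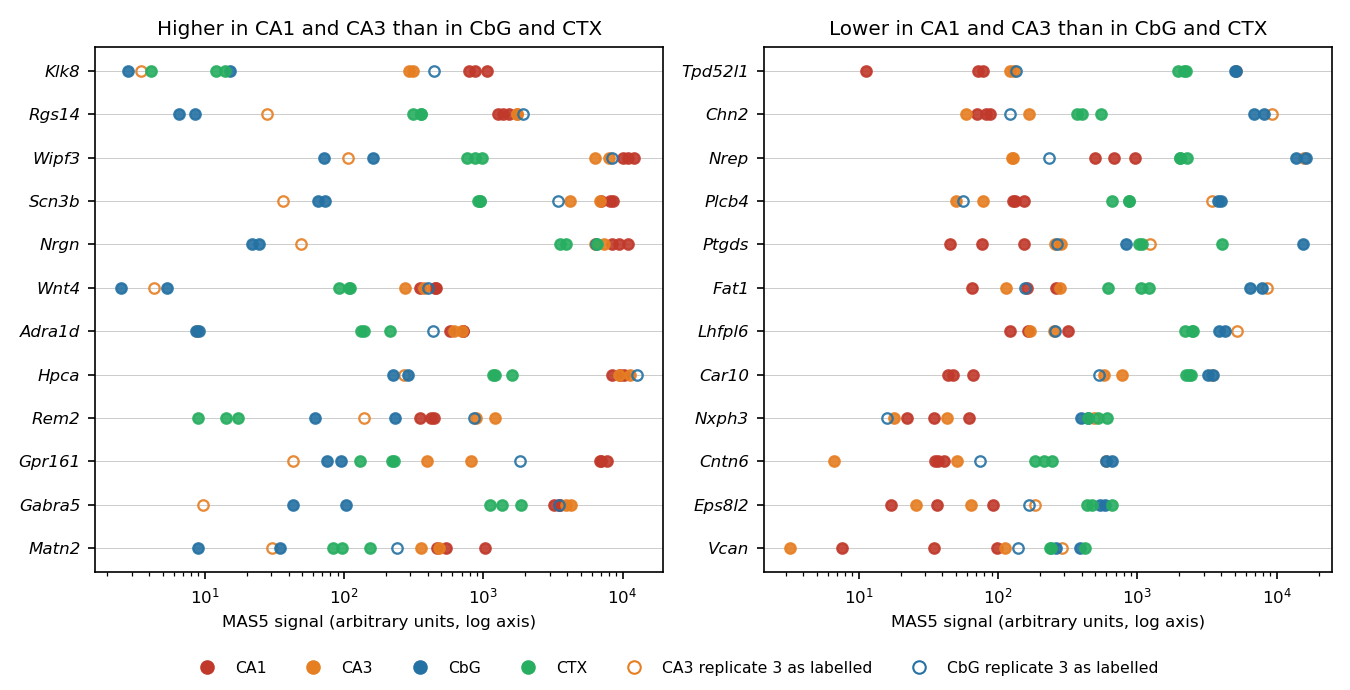
MAS5 signals (log axis) of the 12 shared probe sets with the largest differences in each direction, 1 point per array, with CA1 and CA3 listed before CbG and CTX and open circles for the 2 arrays whose labels are in doubt. In *Klk8* the CA1 and CA3 points lie between 291.0 and 1068.1, all above the CbG and CTX points, while the open CA3 circle lies at 3.5 and the open CbG circle at 445.8.

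Shared probe sets that were lower in HIP were fewer and had a median log2 difference of -1.61, with sizes between 0.695 and 5.26. They were 197 probe sets, 162 with 1 symbol (153 genes), and in 179 all 5 HIP arrays lay below all 5 others. CA1 and CA3 differed in 21 of them (10.7%), 7 with CA1 higher and 14 with CA3 higher, near the 9.11% of all tested probe sets, and the shared rule bears on this share too. CbG and CTX differed in 58 (29.4%), against 24.4% of all tested probe sets, and in 50 of these CbG was above CTX.

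*Tpd52l1*, a coiled-coil protein of the tumour protein D52 family, was lowest relative to the other regions. It read 72.5, 11.3 and 77.6 in CA1 and 130.2 and 122.7 in CA3, against 5139.2 and 5007.3 in CbG and 2163.9, 2235.2 and 1964.3 in CTX. All HIP arrays lay below all others by more than an order of magnitude, with a log2 difference of -5.26 ± 0.43 (SE, limma adjusted p = 1.03e-05). *Chn2*, beta-chimaerin, a GTPase-activating protein that turns off Rac, read 71.3, 81.9 and 88.4 in CA1 and 166.0 and 59.0 in CA3, against 8110.7 and 6853.4 in CbG and 366.3, 401.2 and 552.1 in CTX. Its -4.06 ± 0.23 (SE, adjusted p = 1.09e-06) was mostly a gap to CbG. *Chn2* and *Wipf3* moved in opposite directions and their RefSeq starts both lie on the plus strand of chromosome 4.

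Ligands of neurexins and adhesion proteins were among the lower genes. *Nxph3*, neurexophilin 3, a secreted partner of alpha-neurexins, read 62.5, 22.3 and 34.8 in CA1 and 43.3 and 18.1 in CA3, against 393.7 and 442.4 in CbG and 445.2, 525.4 and 606.6 in CTX. *Car10*, a carbonic anhydrase-related protein that binds neurexins, read 47.5, 43.5 and 65.9 in CA1 and 575.8 and 772.7 in CA3, against 3208.9 and 3506.4 in CbG and 2438.6, 2252.0 and 2358.2 in CTX. In *Nxph3* the signals of the layers overlapped, while in *Car10* the CA1 minus CA3 difference was -3.84 on the log2 scale, and their differences from CbG and CTX were -3.60 and -3.65. *Fat1*, an atypical cadherin, *Cntn6*, a contactin, and *Vcan*, the matrix proteoglycan versican, differed by -3.75 ± 0.24, -3.52 ± 0.40 and -3.41 ± 0.71 (SE). *Vcan* rests on very low HIP signals, 3.2 to 112.0, against 237.5 to 424.0 in CbG and CTX, and its error was the largest of these.

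*Plcb4*, a phospholipase C of metabotropic receptor signalling, and *Nrep*, a protein linked to nerve regeneration, differed by -3.97 ± 0.16 and -3.98 ± 0.20 (SE), and in both CA1 read more than CA3, by 1.01 and 2.37. *Lhfpl6*, a tetraspan membrane protein, and *Eps8l2*, an actin capping protein, differed by -3.72 ± 0.22 and -3.49 ± 0.41 (SE), without a called gap between the layers. *Ptgds*, the prostaglandin D synthase of meninges and oligodendrocytes, read 45.6 to 282.8 in HIP, against 826.3 to 15453.5 in CbG and CTX. The high end was 1 CbG array, and the other CbG array had the low end, so the level within CbG was not settled. The difference was -3.76 ± 0.45 (SE, adjusted p = 0.000104).

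Members near the edge of the rule were *Ivd* and *Hip1* inside it, with a largest pairwise adjusted p of 0.04994 and 0.04959. *Ago1* and *Tmod1* (log2 difference -1.7) lay outside it, at 0.05001 and 0.05043. A gene could also be read by several probe sets. Of 82 shared higher genes with more than 1 tested probe set, 54 had all of them called in the same direction, as had 14 of 19 shared lower genes. *Grin1*, the obligatory NMDA receptor subunit, was shared in opposite directions by its 2 probe sets, at 1.52 ± 0.20 and -0.99 ± 0.17 (SE), so no direction can be given for the gene. *Syne1*, a nuclear envelope protein with many isoforms, had 1 probe set shared lower (-2.23) and another called higher but not shared (1.08).

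Most HIP calls were not shared by every pair. Of 2292 probe sets higher in HIP, 665 (29%) passed in all 4 pairs, 605 in 3, 853 in 2, 140 in 1 and 29 in none. Both layers passed against CbG and neither against CTX in 383, and against CTX but not CbG in 176. CA1 passed against both CbG and CTX and CA3 against neither in 128, and the reverse held in 166. Of 925 lower probe sets, 197 (21.3%) passed in all 4 pairs, 187 in 3, 473 in 2, 58 in 1 and 10 in none, and 262 differed from CbG in both layers but not from CTX, against 54 for CTX and not CbG.

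In a smaller group HIP lay between the other regions. The mean of both layers was above CbG and below CTX in 62 probe sets (0.747%), and below CbG and above CTX in 43 (0.518%), and single layers need not pass in each pair. *Mef2c*, a transcription factor of forebrain neurons, read 2792.7, 2886.7 and 2811.4 in CA1 and 1123.3 and 858.9 in CA3, against 234.2 and 395.5 in CbG and 10869.4, 12942.5 and 9991.5 in CTX. *Cbln2*, a synapse organizer, read 98.9 to 267.5 in HIP, against 9.6 and 18.5 in CbG and 1159.0, 1346.9 and 1242.1 in CTX. *Sstr1*, a somatostatin receptor, *Egr2*, an activity-regulated transcription factor, and *Catsperz* had the same order, and the mean of CbG and CTX was close to HIP in all 5, with differences of -0.18 to 0.59. *Neurod1*, a transcription factor that granule cells keep into adulthood, read 839.2, 663.0 and 1408.3 in CA1 and 1540.4 and 1510.2 in CA3, against 6867.7 and 15335.0 in CbG and 73.7, 52.2 and 53.6 in CTX. *Il16*, *Fzd1*, a Wnt receptor, *Slc16a6* and *Mpp3* had that order too, and in *Il16* the level in HIP came from CA3, with 1764.3 and 2091.0, against 33.2 to 72.0 in CA1, and CA1 did not pass against CTX (adjusted p = 0.686).

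**Figure D3:**
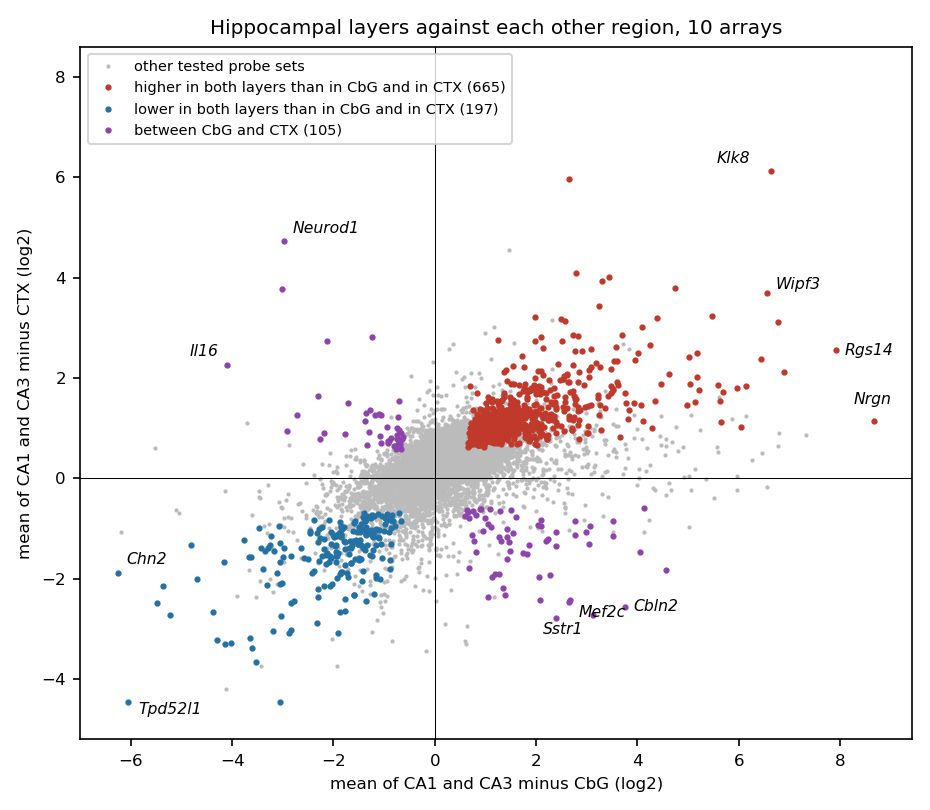
Log2 difference of HIP from CbG (x axis) and of HIP from CTX (y axis) for every tested probe set, with shared higher, shared lower and between probe sets coloured. *Rgs14* lies at 7.91 and 2.55, *Nrgn* at 8.67 and 1.14, and *Neurod1* at -2.97 and 4.73.

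Gene lists were counted with 1 probe set per gene, that with the highest mean signal, and read against all genes tested in the same way, of which 27.7% were higher and 10.6% lower in HIP with a median of 0.26 (-0.01 on the deposited scale). With the 2 labels exchanged no count of calls higher or lower in these lists moved by more than 2. Of 10 markers of hippocampal pyramidal cells tested, 9 were higher and none lower, with a median of 2.40, and 9 were higher on the deposited scale. Against CbG alone 9 were higher and none lower, against CTX alone 6 were higher and 1 lower, and 4 were shared. Their summed signal was 43310 to 59930 in HIP arrays, against 13860 to 14590 in CbG and 32760 to 35210 in CTX. Of 6 CA1 markers 5 were higher, with *Wfs1*, a protein of the endoplasmic reticulum, at 15688.4, 20537.9 and 17373.0 in CA1 and 1044.7 and 481.4 in CA3, against 343.5 and 233.7 in CbG and 816.1, 644.7 and 815.7 in CTX. Of the 2 CA3 markers tested 1 was higher (*Bok*, 2.07), and *Grik4* had a difference of 0.50 (adjusted p = 0.114), since CA1 read 16.5 to 45.3.

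Markers of other cells moved with the comparison. Of 10 astrocyte genes tested 7 were lower in HIP and none higher (10 lower on the deposited scale), among them *Glul*, glutamine synthetase (-1.02), *Aqp4*, the water channel of astrocyte endfeet (-1.52), and *Gjb6* (-1.60). Over all 13 tested probe sets of the astrocyte list 8 were lower and 1 was higher. All 7 oligodendrocyte genes tested, all 3 microglial and all 4 endothelial ones were lower, with medians of -1.55, -1.12 and -1.16. Few were shared lower: 1 astrocyte, 1 oligodendrocyte and 2 endothelial genes, and no microglial one. Against CbG alone 5 oligodendrocyte and 1 microglial genes were lower, against CTX alone 7 and 3. The oligodendrocyte sums were 4537 to 7021 in CA1, 10280 to 13820 in CA3, 14770 to 18000 in CbG and 30250 to 45560 in CTX. Summed over each whole list, the astrocyte markers read 12790 to 21490 in HIP arrays, against 27620 to 49480 in CbG and CTX arrays, the oligodendrocyte markers 4537 to 13820 against 14770 to 45560, the microglial ones 466.1 to 983.8 against 895.4 to 2274, and the endothelial ones 857.4 to 1798 against 2367 to 5449. The ranges overlapped for microglia and for none of the other 3 lists. These sums are of signals before centring, and array medians were lower in HIP (154 against 187), so the gaps depend in part on the array scale. As labelled, all 7 oligodendrocyte genes were still lower at an unadjusted p under 0.05, while 1 of the 10 hippocampal pyramidal markers was higher. The part of these cells in the remaining results was not tested.

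Of 5 granule cell markers of the cerebellum 4 were lower and 1, *Neurod1*, higher (not called on the deposited scale), and the summed signal was 1930 to 2563 in HIP, against 35470 to 41060 in CbG and 1693 to 2002 in CTX. Of 4 Purkinje markers 3 were lower, and their sum was 3809 to 8630 in HIP, against 15790 and 37260 in the 2 CbG arrays, which thus held Purkinje RNA in unequal amounts. Among 7 interneuron markers 2 were higher and 2 lower (4 lower on the deposited scale). *Reln*, the matrix protein reelin, which granule cells of the cerebellum also make, read 249.4 to 588.6 in HIP, against 12847.4 and 14934.6 in CbG and 881.9 to 1934.9 in CTX. *Cck*, cholecystokinin, was higher than in CbG by 5.97 and differed from CTX by -0.24 (adjusted p = 0.379). *Prox1*, a factor of dentate granule cells and the 1 marker of its list tested, was shared lower at -2.01 ± 0.17 (SE), and of 3 deep cortical markers 1 was higher and 1 lower.

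**Figure D4:**
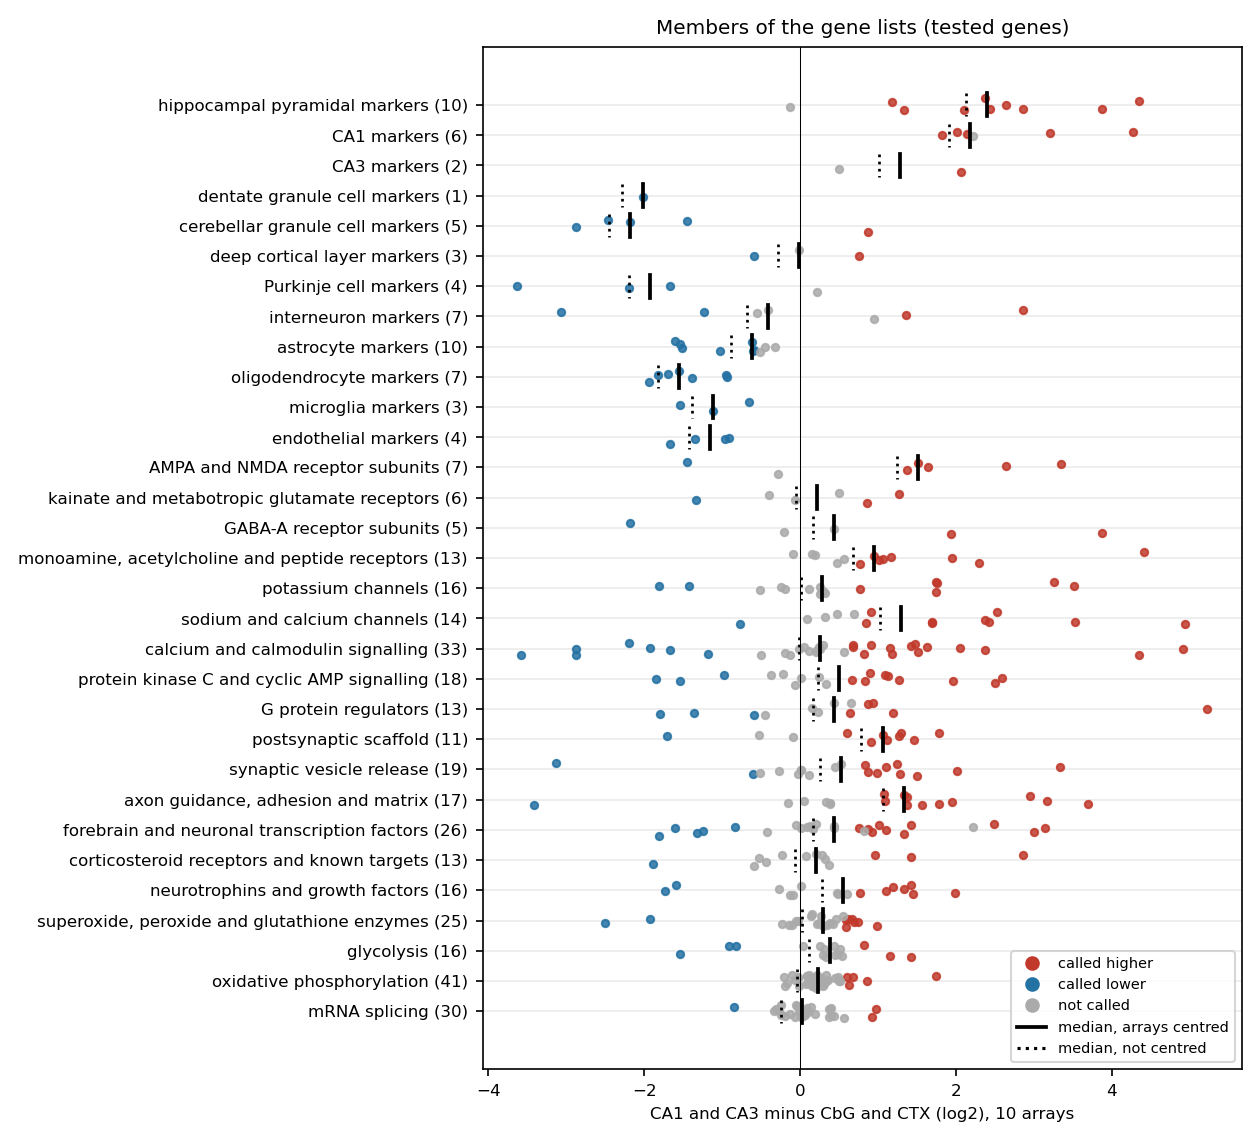
Log2 difference of HIP from CbG and CTX over 10 arrays for each tested gene of each list (number tested in brackets), 1 point per gene, coloured by call, with the list median after centring (solid mark) and on the deposited scale (dotted mark). Hippocampal pyramidal markers have 9 of 10 genes higher, and the glial, microglial and endothelial lists have none higher with 1 probe set per gene.

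Among glutamate receptors, 5 of 7 AMPA and NMDA genes were higher and 1 lower by the probe set with the highest signal, 4 of them shared. This counts *Grin1* as higher, and over all probe sets of the list 7 were higher and 2 lower, with 1 of the lower ones, that of *Grin1*, shared. *Cnih2*, an auxiliary subunit that slows AMPA receptors, read 2681.7, 3306.9 and 3268.9 in CA1 and 1998.2 and 2280.0 in CA3, against 152.6 and 91.0 in CbG and 764.3, 731.4 and 835.3 in CTX. *Gria1*, the AMPA subunit recruited in plasticity, read 1330.9 to 2364.0 in HIP, against 159.3 to 794.6 in CbG and CTX. Both were separated without overlap, at 3.35 ± 0.17 and 2.65 ± 0.21 (SE, limma adjusted p = 6.99e-07 and 8.24e-06), and *Gria2*, which blocks calcium entry through the receptor, differed by 1.38. *Grin2c*, the NMDA subunit of adult granule cells, was lower (-1.45). Of 6 kainate and metabotropic genes 2 were higher (*Homer1* and *Grik5*) and 1, *Grm3*, lower.

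Inhibitory and modulatory receptors had their own members. Of 5 GABA-A genes 2 were higher, *Gabra5* and *Gabrb1* (1.94), and 1, *Gabrd*, the delta subunit of granule cells, lower (-2.18). Of 13 monoamine, acetylcholine and peptide receptors 8 were higher and none lower, 2 of them shared, *Adra1d* and the somatostatin receptor *Sstr4* (1.95 ± 0.24, SE), with a list median of 0.95. *Npy5r*, a neuropeptide Y receptor, was higher by 2.30. On the deposited scale 6 of the 13 were higher.

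Of 14 sodium and calcium channel genes 9 were higher and 1 lower, with 6 shared and a median of 1.3, and on the deposited scale 8 and 1. The shared ones were *Scn3b*, the calcium channel subunits *Cacnb1* (3.53), *Cacnb2* (2.53), *Cacna2d3* (2.42) and *Cacna2d1* (1.70), all auxiliary, and *Cacna1h* (2.37), a T-type pore. The pore subunits *Scn2a* and *Cacna1c* had differences of 0.10 and 0.47 that did not pass, and *Scn1a*, a sodium pore of interneurons, was lower (-0.77). Of 16 potassium channel genes 6 were higher and 2 lower, a share of higher genes near the background, with a median of 0.28. *Kcnip2*, a partner of A-type channels, read 2934.3 to 4049.5 in HIP, against 232.0 to 1119.8 in CbG and CTX, and was shared with *Kcnma1*, *Kcnj6* and *Kcnab2*. *Kcnc1*, a channel of fast-spiking cells, was lower (-1.81).

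Calcium and calmodulin genes, a list of 33, had 14 higher and 7 lower, and 11 and 8 on the deposited scale. Beside *Nrgn* and *Hpca*, the calcineurin subunits *Ppp3r1* (1.43) and *Ppp3cb* (0.68) were shared, and *Ppp3ca* was higher by 0.92. *Camk2a*, the alpha subunit of the plasticity kinase, was higher than CbG by 4.34, with -0.23 against CTX (adjusted p = 0.35). Of the lower members *Calb2* (-2.87), *Hpcal1* (-2.87) and *Camk2d* (-1.92) were set apart mainly from CbG. *Pcp4*, a calmodulin partner, differed by -3.58, but read 39.9 to 183.4 in CA1 and 5599.0 and 5856.3 in CA3, against 4748.5 and 16935.4 in CbG and 9094.6 to 12619.8 in CTX.

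Of 18 protein kinase C and cyclic AMP genes 9 were higher and 3 lower (7 and 4 on the deposited scale). *Akap5*, which anchors protein kinase A at the synapse (2.59), *Pde2a*, a phosphodiesterase (2.50), *Prkca* (1.96) and *Adcy3* (1.27) were shared higher, and *Prkcd* was shared lower (-1.54). Of 13 G protein regulators 5 were higher and 3 lower (3 and 4 on the deposited scale), with *Rgs14* and *Rgs3* (-1.80) shared in opposite directions and *Rgs4* lower against CTX alone (-2.91). Of 11 postsynaptic scaffold genes 8 were higher and 1 lower, with a median of 1.06. *Dlg3* was shared higher (1.46), and its relative *Dlg1* read 635.2 to 802.1 in HIP, against 3277.2 and 5129.1 in CbG and 1586.9 to 2108.0 in CTX, and was shared lower (-1.71 ± 0.19, SE).

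Of 19 genes of vesicle release 9 were higher and 2 lower, and only the vesicular glutamate transporter *Slc17a7* (1.5) was shared. *Slc17a6*, the other vesicular glutamate transporter, read 853.7, 1581.8 and 2219.0 in CA1 and 368.5 and 324.0 in CA3, against 46.7 and 199.0 in CbG and 219.2, 98.3 and 18.3 in CTX. *Cadps2*, a priming factor, was lower overall (-3.13) but read 2684.0 to 3124.0 in CA1 and 218.3 and 39.3 in CA3, against 9031.8 and 9100.6 in CbG and 2784.0 to 4360.5 in CTX.

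Guidance and adhesion genes had 11 of 17 higher and 1, *Vcan*, lower, with 6 shared higher and a median of 1.33, and 11 and 1 on the deposited scale. *Epha4*, an ephrin receptor that acts at dendritic spines, read 8844.8, 11145.3 and 8898.1 in CA1 and 8861.5 and 11626.2 in CA3, against 269.6 and 185.6 in CbG and 3189.6, 4520.2 and 3635.8 in CTX. *Nrp1*, a semaphorin receptor, read 1177.0 to 1610.0 in HIP, against 91.9 and 58.0 in CbG and 441.8 to 544.9 in CTX. Both had CTX in the middle, at 3.70 ± 0.17 and 3.17 ± 0.17 (SE), and *Epha5* (2.95), *Plxna1* (1.79), *Slit3* (1.38) and *Cdh2* (1.09) were shared with them.

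Transcription factors were mixed, with 10 of 26 higher and 5 lower, and 6 and 6 on the deposited scale. Of these *Neurod2*, a factor of excitatory forebrain neurons (1.33), was shared higher and *Cux1* (-1.61), *Id2* (-1.24) and *Nfia* (-0.83) were shared lower, while *Meis2* (3.01) and *Lhx2* (3.15) were set apart mainly from CbG. Of 13 corticosteroid receptors and targets 3 were higher and 1 lower (3 and 4 on the deposited scale). *Nr3c2*, the mineralocorticoid receptor, read 3075.4, 2591.1 and 2730.0 in CA1 and 2411.2 and 2663.3 in CA3, against 566.8 and 456.8 in CbG and 405.2, 331.4 and 424.5 in CTX. The signals of the layers overlapped and every HIP array was far above the others (2.86 ± 0.15, SE, limma adjusted p = 6.99e-07). *Fkbp5*, a chaperone of the steroid receptors and itself induced by them, was shared too (1.43), and *Dusp1*, another induced gene, was lower (-1.89). Of 16 growth factor genes 7 were higher and 2 lower (5 and 2 on the deposited scale), with *Fgf13* shared higher (1.99) and *Vegfa*, the endothelial growth factor, shared lower (-1.59 ± 0.17, SE).

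Of 25 superoxide, peroxide and glutathione genes 7 were higher and 2 lower, shares near those of all genes, and on the deposited scale 1 and 2. *Nfe2l2*, the transcription factor NRF2 that turns on antioxidant genes, read 84.8, 122.4 and 62.7 in CA1 and 125.5 and 19.4 in CA3, against 678.9 and 679.0 in CbG and 377.2, 228.6 and 294.4 in CTX. It was shared lower without overlap, at -2.50 ± 0.37 (SE, adjusted p = 0.000426), and *Keap1*, which holds it back, differed by 0.62, a call lost on the deposited scale. Of 16 glycolysis genes 3 were higher and 3 lower, of 41 of oxidative phosphorylation 5 were higher and none lower (1 higher on the deposited scale), and of 30 of mRNA splicing 2 were higher and 1 lower. The oxidative phosphorylation and splicing shares were below the 27.7% of all genes.

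Subunits of the Arp2/3 complex, which starts new branches on actin filaments in growth cones and spines, were mostly higher. This list and the other actin lists were put together after the values had been seen, and their counts are a description. Of 8 tested, 7 were higher and shared, with a median of 1.26 (0.99 on the deposited scale), and in 6 no HIP array overlapped the others before centring. Of all tested probe sets 8.01% were shared higher, and in 18.6% all HIP arrays lay above the others after centring. *Arpc2* read 14660.3, 16665.9 and 15457.3 in CA1 and 8200.5 and 9084.5 in CA3, against 2897.6 and 3148.7 in CbG and 3726.1, 3257.2 and 3597.8 in CTX. *Arpc5* read 8911.5, 9788.4 and 9917.6 in CA1 and 8302.3 and 9306.0 in CA3, against 2359.6 and 2868.5 in CbG and 3332.4, 3248.1 and 3231.4 in CTX. CbG and CTX stood close together in both, with log2 differences of 2.10 ± 0.14 and 1.92 ± 0.14 (SE, limma adjusted p = 3.15e-06 and 6.8e-06). *Arpc1a* (1.51), *Arpc3* (1.32), *Arpc4* (1.20), *Actr2* (1.12) and *Arpc5l* (1.05) followed. *Arpc1b*, the other form of the ARPC1 subunit, read 106.5 to 180.1 in HIP, against 146.7 to 248.7 in CbG and CTX, a difference of -0.19 that did not pass (adjusted p = 0.335).

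Of 9 tested genes on a list of N-WASP, its binding partners and members of the WAVE complex, 8 were higher and 6 shared. The shared ones were *Wasl*, N-WASP itself, at 1.19, the WAVE complex members *Abi1* (1.57), *Cyfip1* (1.21), *Brk1* (1.20) and *Nckap1* (0.83), and *Wipf3*. *Wipf1* had a difference of -0.41 (adjusted p = 0.111), and 5 of the 9 were higher and 1 was lower on the deposited scale. Of 21 other actin binding genes on the list 14 were higher, 10 of them shared, and 1, gelsolin (*Gsn*, -0.84), lower. The list does not hold all actin binders, and *Eps8l2* (-3.49) and *Tmod1* (-1.7), which are not on it, read lower in HIP, so its count does not describe actin binding genes in general. *Cotl1*, coactosin-like protein, read 1440.0, 1509.5 and 1345.9 in CA1 and 1051.8 and 1336.2 in CA3, against 160.3 and 158.4 in CbG and 138.5, 163.5 and 155.6 in CTX. *Dbn1*, drebrin, which binds actin in spines, read 1474.5 to 2634.2 in HIP, against 144.0 to 935.3 in CbG and CTX. Neither overlapped, and they differed by 3.34 ± 0.14 and 2.73 ± 0.17 (SE), while *Cttn*, cortactin, a partner of the complex, differed by 1.81.

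**Figure D5:**
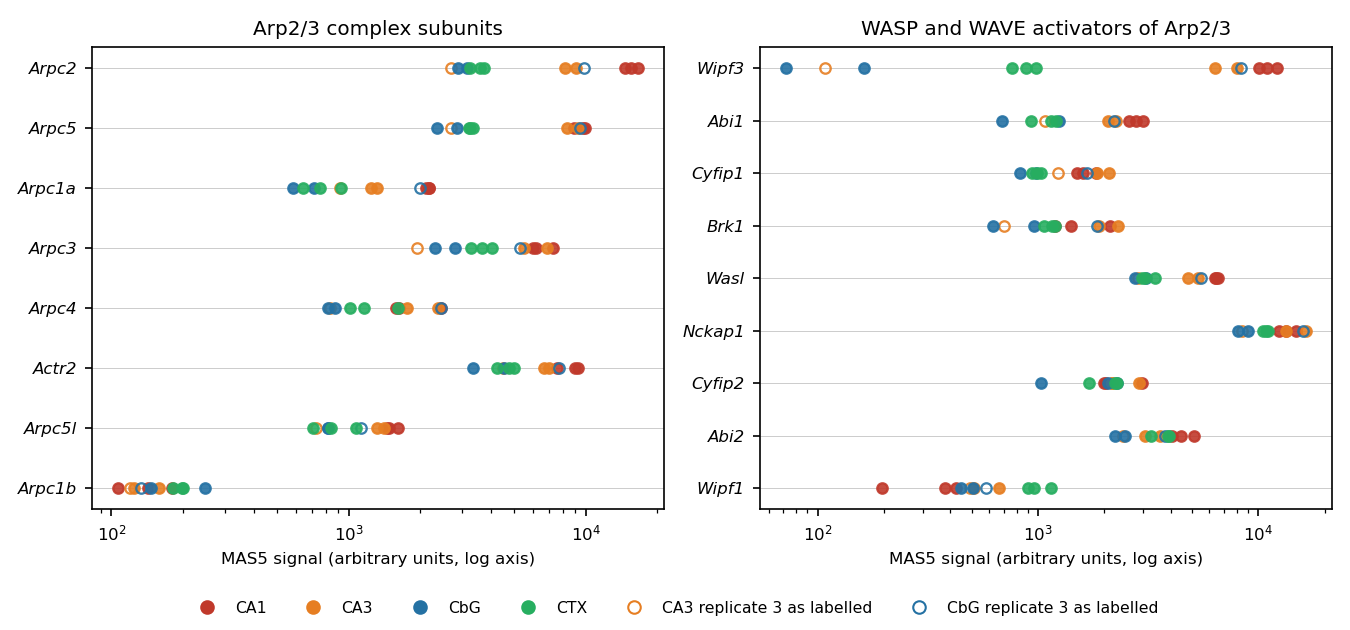
MAS5 signals (log axis) of the 8 tested Arp2/3 subunits (left) and the 9 tested genes of N-WASP, its binding partners and the WAVE complex (right), 1 point per array, with open circles for the 2 arrays whose labels are in doubt. In *Arpc2* the CA1 and CA3 points lie between 8200.5 and 16665.9, above the CbG and CTX points at 2897.6 to 3726.1, and in *Arpc1b* the regions overlap.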

How the data were processed

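The authors deposited MAS5 signal intensities on a linear scale, made in the scanner software and scaled to 1 target per array, and the MAS5 version is not given in the sources used here. The table has 15923 probe sets, array medians of 145.5 to 199.3 and no column without a sample, and the number of arrays limits the precision. Symbols came from a gene table of the array (12789 probe sets with 1 symbol, 312 with several). After 57 controls were left out, probe sets above the array median in at least 5 of 12 arrays were tested (52.3%). The cut was set to keep genes of the hippocampal layers alone. Genes above the median in CbG alone or in CTX alone, with 3 arrays each, could not pass, and *Gabra6* and *Rprm* were not tested. Log2 signals centred on the array median were fitted in limma 3.58.1 (R 4.3.3) with region means and the biological replicate number as a block, and p-values were adjusted by Benjamini-Hochberg over all tested probe sets. Residual degrees of freedom were 6 as labelled and 4 in 10 arrays.

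Same-numbered arrays were taken as 1 rat, since the methods describe the regions as captured from each animal. Deviations from the region means correlated by 0.108 on average between same-numbered arrays (13 pairs, -0.0296 to 0.188) and by -0.0583 between others in 10 arrays, and by -0.0621 and 0.0212 as labelled.

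The members, gene lists and markers were chosen with earlier results of these data known, the 3 actin lists after their values were seen. Named genes are the 12 largest shared differences in each direction, the 5 largest between genes of each order, 5 markers of the labels, and up to 4 called members of each list by size. Any other gene named was singled out with its values known. The alternatives covered other scalings, floors, filters, thresholds, priors, no block, a paired test of the methods' kind, all probe sets of a list, and leaving out each array and rat. The fit was tested on simulated data, and figures were drawn in matplotlib 3.10.9 (Python 3.11.15). Promoters are those of RefSeq, assembly GRCr8.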

Additional observations from a re-analysis of the deposited data

Results flagged for a closer look

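In 19 of the 24 largest shared genes, the array labelled CA3 replicate 3 or that labelled CbG replicate 3 stood apart from the other 5 arrays of its side, by a gap test. The test flags about 1 in 20 groups of this size by chance, but that rate does not hold here, since these genes were picked for their differences over the other 10 arrays. Among the 6 arrays labelled CA1 and CA3, the signal of CA3 replicate 3 was far below the rest in *Klk8* (3.5), *Rgs14* (27.9), *Wipf3* (107.6), *Scn3b* (36.5), *Nrgn* (49.2), *Wnt4* (4.3), *Adra1d* (8.8), *Hpca* (269.5), *Gabra5* (9.8) and *Matn2* (30.4). It was far above the rest in *Chn2* (9185.2), *Plcb4* (3445.8), *Fat1* (8496) and *Lhfpl6* (5147.3). Among the 6 arrays labelled CbG and CTX, the signal of CbG replicate 3 was far above the rest in *Klk8* (445.8) and *Gpr161* (1834.1), and far below it in *Tpd52l1* (135.7), *Lhfpl6* (256.6), *Car10* (533.5), *Nxph3* (16) and *Eps8l2* (167).

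In 4 of these 24 genes the hippocampal layers differed from each other in limma over 10 arrays. CA1 minus CA3 was 3.56 on the log2 scale in *Gpr161*, 2.37 in *Nrep*, 1.01 in *Plcb4* and -3.84 in *Car10*, so the difference from CbG and CTX was not of 1 size in both layers.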

How the results depend on the processing

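The counts as labelled, 12 probe sets higher and 5 lower in HIP, moved with the arrangement of the arrays. With labels exchanged there were 2056 and 978, with 707 and 236 shared. Other settings as labelled gave 5 higher and 8 lower (quantile normalization), 2 higher (no centring), 3 lower (signals under 50 set to 50), 0 and 3 (no filter), 19 higher (filter on the mean), 20 higher (trend and robust prior), and 0 and 0 (adjusted p under 0.01). A paired test of the methods' kind set CA1 against CbG and CA3 against CTX within each rat. It took the pairs of 1 rat as independent, and other pairings were not tried. The paper's own test compared other groups of regions. Over 6 pairs this paired test gave 761 and 199 at the methods' threshold, and 1 and 0 after adjustment. Leaving out 1 array or rat gave 0 to 2038 higher and 0 to 851 lower, with 0 to 342 and 0 to 122 shared. All but 3 of these gave 0. The exceptions were 1630 and 499 without CA3 replicate 3, 1526 and 446 without CbG replicate 3, and 2038 and 851 without rat 3. The cause of these shifts was not tested.

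The replicate block mattered as labelled, but both arrays in doubt carry number 3 there, so the shift is no measure of pairing by rat. The fit with no replicate block called 265 higher and 90 lower as labelled. In 10 arrays it called 2286 and 900, with 712 and 182 shared. In 10 arrays, against 2292, 925, 665 and 197, quantile normalization gave 1414 higher (279 shared) and no centring 1286 and 1521 (246 and 328 shared). No filter gave 110 and 37 shared, an adjusted p under 0.01 241 and 72 shared, and 2-fold 970 and 454 (247 and 111 shared). The paired test over 4 pairs gave 1319 and 433, and 23 and 3 after adjustment. Leaving out 1 array or rat gave 2038 to 2453 higher and 839 to 1034 lower, but 203 to 653 and 80 to 229 shared. The lowest came without CA3 replicate 2, where the other CA3 array stands alone and is assumed to vary like the rest. Shared higher counts also fell by over 1.5 times without CA1 replicate 1 (437), CTX replicate 1 (403), CTX replicate 2 (440) and rat 3 (342). Shared lower ones did so without CTX replicate 2 (126) and rat 3 (122). In the 10 arrays rat 3 holds only CA1 replicate 3 and CTX replicate 3. Leaving out either of these is the same fit as leaving out rat 3, with the same counts. Fits without CA3 replicate 1 or rat 1 also leave a CA3 array alone, and shared higher counts fell there too. Of 140 named results, 116 kept direction and side of the threshold in every setting except as labelled. As labelled 131 lost their call, 8 did not change, and *Dhx16* turned to 0.0055 (adjusted p = 0.995).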
